A study of Rattus norvegicus with 24 samples.

Results

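The 12 DMSO arrays of this study hold the expression of primary rat hepatocytes kept in a collagen sandwich without a drug. They were chosen by their titles, which name each one as the control of 1 treated sample, and they are 12 of the 24 arrays in the series. The study exposed these cultures to 4 piperazine designer drugs at their EC20, a concentration of partial effect, and measured total RNA on Affymetrix rat arrays. The treated groups were 625 µM BZP, 35 µM TFMPP, 522 µM MeOPP and 467 µM MDBP, with 3 arrays each, and the 12 DMSO arrays had 0.1% DMSO. All cultures stood for 24 h after seeding and were then exposed for 24 h, and every library started from 100 ng of total RNA. The labels give neither strain, sex nor age of the rats, and do not say whether the arrays come from separate animals, so p-values measure only the spread between these arrays.

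Hepatocytes make most plasma proteins, turn ammonia into urea, store and release glucose, clear drugs through cytochromes P450 and conjugating enzymes, and make bile acids from cholesterol. When they are taken out of the liver and plated they lose part of this programme, P450 and bile acid genes first among them, while genes of the cytoskeleton, of stress and of the acute phase tend to rise. A layer of collagen above and below the cells slows this loss and lets bile canaliculi form again. Freshly isolated cells also carry along some of the other cells of the liver: Kupffer cells, the resident macrophages, stellate cells, which store vitamin A, endothelial cells of the sinusoids, and cholangiocytes of the bile ducts. No array of fresh liver or of freshly isolated cells was analysed here, so a level says that a transcript was measured in culture and not how much of it was kept or lost.

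Each gene is read here from the brightest of its probe sets, by the mean of the 12 DMSO arrays, on the log2 scale of the deposited RMA values, which gave 14217 genes. Genes of other tissues (neurons, muscle, pancreas and the like) had a median of 3.44 over 92 genes, and the 95th percentile of these, a log2 value of 5.00, served as the bound of background. By this bound 8614 genes (60.6%) were above background, 7775 of them on all 12 arrays, and 5603 were not. The level of a probe set also depends on its probes, so differences between genes below describe probe sets and not numbers of transcripts. One gene of the other-tissue list stood far over the bound: Myh1, a myosin heavy chain of fast muscle, had a mean of 10.21, and all 5 of its probe sets lay between 8.60 and 10.21. Lhb (5.74), Neurod2 (5.61), Pax8 (5.25) and Ins1 (5.13) of that list were also over it. A mean between 5.00 and 5.74 is therefore weak evidence that a transcript was present.

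The 12 DMSO arrays fell into 5 sets of alike arrays by clustering. Set 1 held the DMSO arrays of the first pair of each of the 4 drugs, set 2 the second ones of TFMPP, MeOPP and BZP (3 arrays), set 3 the third ones of MDBP and BZP (2 arrays), set 4 the third ones of TFMPP and MeOPP (2 arrays), and set 5 the second pair of MDBP alone. Pearson r over all probe sets was 0.994 to 0.997 within sets and 0.962 to 0.992 between them. The sets were cut from these same correlations, so this gap describes the sets and does not test them. The labels give no date or preparation for these sets. The difference between the 3′ and 5′ probe sets of actin, a measure of RNA integrity, was 2.34 to 2.97 in set 1, 2.06 to 2.36 in set 2, 2.22 to 2.40 in set 3, 2.17 and 2.19 in set 4, and 2.60 in set 5. Its part in the differences between sets was not tested.

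All 3 hepatocyte markers were high on all 12 DMSO arrays. Alb, serum albumin, had the brightest probe set of all on each of the 24 arrays, at 14.06, 14.07 and 14.10 (lowest, median, highest of the 12 DMSO arrays). Because the authors' normalization gives the brightest probe set of every array nearly the same value, the small spread of Alb is not a measurement of how constant it was. Cps1, which carries out the first step of the urea cycle, had 12.65, 12.92 and 13.10. The pairs did not differ detectably (limma F test on all 24 arrays, adjusted p = 0.24), an outcome kept in 17 of 18 alternative runs. A second probe set of Cps1, with a mean of 11.86, spread more widely (11.13 to 12.32, SD 0.39, against 0.12 for the one read). Apob, the structural protein of very low density lipoprotein, had 10.52, 11.42 and 12.26, with set 4 lowest (10.52 and 10.67) and set 5 highest (12.26). A second probe set of Apob was far dimmer, with a mean of 5.41, so the level of this gene depends on which probe set is read. The label of hepatocytes held by these markers.

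The 25 brightest probe sets over the DMSO arrays were led by the secreted products of hepatocytes. They lay between 13.02 and 14.07, and 14 of the 25 belonged to plasma and acute phase proteins, 4 to ribosomal proteins and 2 to subunits encoded in the mitochondrial genome (COX1 at 13.41 and COX2 at 13.18). Among the plasma proteins were Orm1, an acute phase glycoprotein, with a mean of 13.71 ± 0.04 (SD, n = 12), Fgb, a chain of fibrinogen, with 13.59 ± 0.12, and Gc, the vitamin D carrier, with 13.38 ± 0.09. Fga and Fgg, the other chains of fibrinogen, had 13.21 ± 0.30 and 13.07 ± 0.33, the widest spread within the 25. Outside the plasma proteins stood Tdo2, which opens the ring of tryptophan (13.27 ± 0.07), Ctsl, a lysosomal protease (13.25 ± 0.08), Actg1, a cytoplasmic actin (13.10 ± 0.12), and Mgst1, a membrane-bound glutathione transferase (13.02 ± 0.08). Of the 25, 7 differed between the 12 pairs of arrays (adjusted p under 0.05), against 65.4% of the genes above background and 37.4% of all probe sets. Their median SD was 0.106, against 0.260 for the genes above background. All 25 lie near the upper end of the scale, and how far this narrows their spread was not tested.

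The promoters of 2 of these genes are shown because they carry a motif of HNF1, a transcription factor of the hepatocyte, within the first 100 bases before the start. The letters GTTAATNAT, searched on both strands, were in 0.747% of 33469 rat promoters of 300 bases (250 before the start and 50 after it, RefSeq, GRCr8) and in 5 of the 27 promoters found for the plasma protein list (18.5%): those of Alb, Fga, Gc, Igfbp1 and Plg. Capitals mark the match, which starts 82 bases before the start of Alb (chr14:17906930-17907229, minus strand) and 72 bases before that of Igfbp1 (chr14:86261027-86261326, plus strand). Igfbp1, a binding protein of insulin-like growth factors that is released in fasting, had a mean of 13.28 ± 0.11 (SD, n = 12). A match of letters describes the sequence and says nothing about binding in these cells.
Alb: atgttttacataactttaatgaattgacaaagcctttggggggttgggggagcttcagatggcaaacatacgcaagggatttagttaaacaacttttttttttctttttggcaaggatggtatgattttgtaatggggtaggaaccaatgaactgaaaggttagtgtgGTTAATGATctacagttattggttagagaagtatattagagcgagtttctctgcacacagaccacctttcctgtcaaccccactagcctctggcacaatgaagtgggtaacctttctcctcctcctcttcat
Igfbp1: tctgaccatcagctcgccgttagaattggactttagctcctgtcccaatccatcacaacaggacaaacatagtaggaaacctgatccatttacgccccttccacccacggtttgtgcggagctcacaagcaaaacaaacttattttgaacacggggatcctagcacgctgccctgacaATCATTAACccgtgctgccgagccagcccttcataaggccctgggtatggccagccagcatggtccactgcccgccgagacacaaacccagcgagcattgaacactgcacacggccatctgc

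**Figure D1:**
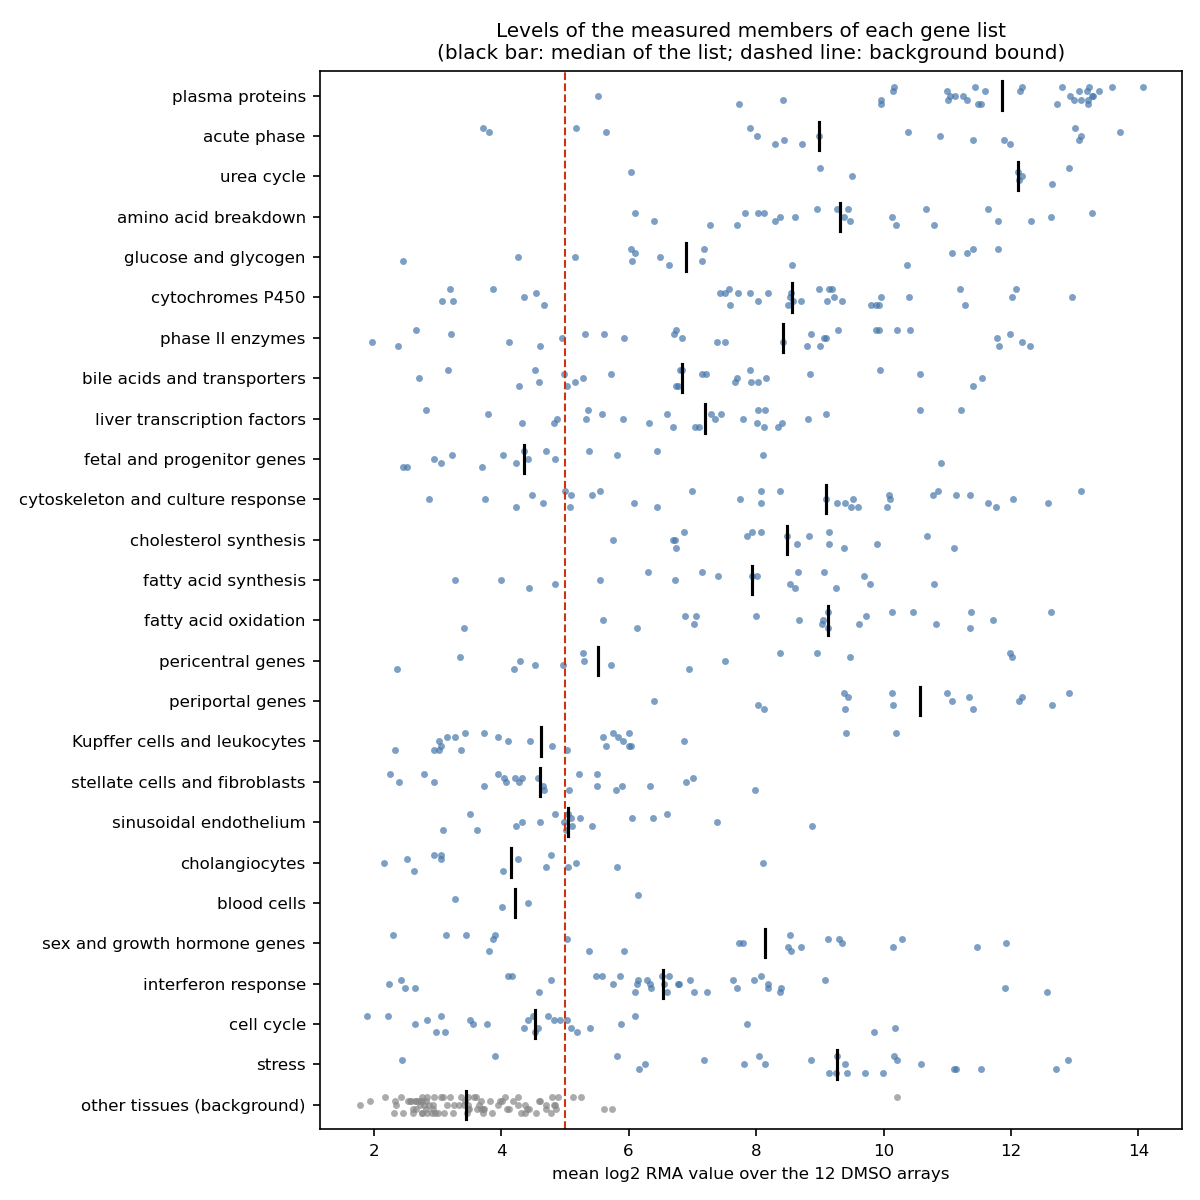
Mean log2 RMA value over the 12 DMSO arrays (x axis) of each measured gene, as points, in each gene list (y axis). Black bars are list medians and the dashed line is the background bound at 5.00. Lists of hepatocyte function lie right of the bound and the lists of cholangiocytes, stellate cells, cell cycle and other tissues lie mostly left of it.

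Plasma protein genes were measured above background without exception (34 of 34, median 11.86). The lowest was Serpina6, the carrier of corticosteroids, with 3.08, 6.32 and 7.09 (lowest, median and highest of the 12 arrays), and here the 4 arrays of set 1 (3.08 to 3.78) lay apart from all others (5.85 to 7.09). Hrg, a heparin-binding glycoprotein, had 6.47, 7.61 and 9.66, and Fetub, an inhibitor of proteases, had 9.86, 10.88 and 12.32. Of the 34 genes 28 differed between pairs, against 65.4% of the genes above background, and 28 differed between the sets in the treated arrays alone, against 42.7%.

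Acute phase genes were above background for 17 of 19 genes (median 8.99). Next to Orm1, the haemoglobin scavenger Hp had 12.59, 13.00 and 13.31, and Lcn2, which binds bacterial siderophores, had 12.79, 13.02 and 13.40. Crp, C-reactive protein, had 7.32, 8.50 and 10.99, with set 1 lowest (7.32 to 7.67) and set 3 highest (10.60 and 10.99). Hamp, the iron hormone hepcidin, had 9.20, 9.87 and 12.11, and its order was different: sets 2 and 5 were high (11.57 to 12.11) and set 3 low (9.20 and 9.21). Socs3, the feedback inhibitor of interleukin 6 signalling, with a mean of 3.71, and the chemokine Ccl2 with 3.81 were both below the bound on all 12 arrays. Nos2, the inducible nitric oxide synthase, had a mean of 5.65 ± 0.11 (SD, n = 12), little above the bound and under the other-tissue gene Lhb (5.74).

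The urea cycle was measured throughout, with 8 of 8 genes above background and a median of 12.12. Arg1, which releases urea, had a mean of 12.64 ± 0.17 (SD, n = 12), Ass1 12.18 ± 0.33, Asl 12.12 ± 0.17, and the ornithine carrier Slc25a15 12.12 ± 0.19. Otc, the enzyme between Cps1 and Ass1, stood apart with 5.08, 5.83 and 7.75. It had the widest range of the 8 and differed between pairs (limma F test, adjusted p = 0.0039), but its level is that of 1 probe set and is not comparable with the levels of the others.

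Genes of amino acid breakdown were above background for 24 of 24 (median 9.32), and 22 of the 24 differed between pairs, against 65.4% of the genes above background. Hpd, of tyrosine breakdown, had a mean of 12.63 ± 0.13, and Mat1a, which makes S-adenosylmethionine in adult liver, 11.79 ± 0.32 (SD, n = 12 each). Bhmt, which passes a methyl group from betaine to homocysteine, varied most, with 6.39, 8.71 and 10.07: set 3 was highest (10.05 and 10.07) and set 1 lowest (6.39 to 7.83). Kmo, of tryptophan breakdown, had 5.13, 5.83 and 8.11, and Uroc1, of histidine breakdown, 7.35, 7.84 and 10.03. Set 3 had the highest mean of the 5 sets for 20 of the 24 genes, against 36.3% of all genes above background.

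In glucose metabolism 14 of 16 genes were above background (median 6.90). Pck1, the gatekeeper of gluconeogenesis, had 10.66, 11.37 and 11.89, Fbp1, a later step of it, 10.48, 10.99 and 12.09, and Slc2a2, the glucose transporter of hepatocytes, 10.95, 11.17 and 11.83. Ldha, lactate dehydrogenase A, was the brightest of the list with a mean of 11.79 ± 0.30. The liver pyruvate kinase Pklr was near the bound, with 4.68, 4.94 and 6.15. Hk1 and Hk2, the hexokinases of other tissues, were below it on every array, at means of 4.27 and 2.46.

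Of the cytochromes P450, which oxidise drugs, steroids and fatty acids, 29 of 36 genes were above background (median 8.56). Cyp2c22 had a mean of 12.95 ± 0.07 (SD, n = 12), Cyp3a23-3a1, which pregnane X receptor ligands induce, had 11.50, 11.97 and 13.03, Cyp2e1, which oxidises ethanol, had 11.43, 11.99 and 12.85, and Cyp2j3, an epoxygenase of arachidonic acid, had 11.28 ± 0.21. Cyp1a2, the caffeine-oxidising enzyme, was lower, with 6.42, 7.35 and 9.61, set 1 lowest (6.42 to 6.81) and set 3 highest (8.57 and 9.61). The lowest members were Cyp4a8 (3.07), Cyp2a3 (3.20) and Cyp17a1 (3.24), the last of which makes steroid hormones in gonads. Set 3 had the highest set mean for 22 of the 29 genes above background, against 36.3% of all such genes. Between pairs 30 of all 36 differed, against 46.8% of all genes and 65.4% of those above background.

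Near-identical members of these families share probe sequence, so the split between Cyp2c, Cyp3a and Sult2a genes is uncertain. Conjugating enzymes of phase II were above background for 24 of 31 (median 8.43). Gstm1 and Gsta1, glutathione transferases, had means of 12.29 ± 0.35 and 11.98 ± 0.11, and Sult1a1, a phenol sulfotransferase, 12.18 ± 0.37 (SD, n = 12 each). Ugt2b1, a glucuronosyltransferase, had 8.55, 10.11 and 12.24, with set 3 highest (11.90 and 12.24) and set 4 lowest (8.55 and 8.72). Sult2a1, a bile acid and steroid sulfotransferase, and Sult1c2 were below the bound on all 12 arrays, at means of 1.97 and 2.66.

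Bile acid genes included both high and low members. Of 27 genes 21 were above background, with a median of 6.84. The canalicular pump Abcc2 had 11.02, 11.48 and 12.14, the uptake carrier Slc10a1 8.15, 10.09 and 10.89, and Cyp27a1, of the acidic route of bile acid synthesis, 10.98, 11.43 and 11.95. Cyp7a1, the rate-limiting enzyme of the classic route, had 4.27, 5.21 and 9.46: the 2 arrays of set 3 (9.13 and 9.46) lay far above the other 10 (4.27 to 5.73), with no overlap. Cyp8b1, which makes cholic acid, was likewise highest in set 3 (9.94 and 10.48, against 6.49 to 8.33 elsewhere), and so was Baat, which conjugates bile acids with amino acids (10.54 and 10.89, against 6.87 to 8.36 elsewhere). Abcg5 and Abcg8, which together form the sterol exporter, were below the bound in the mean, at 4.27 and 3.16, as was Cyp7b1 at 2.71.

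Liver transcription factors were above background for 23 of 28 genes (median 7.20), and those had a median SD of 0.361. Cebpb, a factor of the acute phase response, had a mean of 11.22 ± 0.19, Hnf4a, a nuclear receptor that holds the hepatocyte programme together, 10.57 ± 0.21, and Foxa2, a pioneer factor of liver development, 8.82 ± 0.39 (SD, n = 12 each). Nr1i3, the nuclear receptor CAR, which senses drugs, was the most variable, with 4.06, 5.09 and 7.52; the 2 arrays of set 3 (7.48 and 7.52) were apart from the others (4.06 to 5.92). Ahr, the dioxin receptor, was above the bound only in set 1 (5.92 to 6.35, against 4.00 to 4.31 on the other 8 arrays). Dbp, a clock-controlled factor, and Foxa1 were below the bound on all 12 arrays.

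The 17 genes of cholesterol synthesis were all above background (median 8.49). Fdps, which makes farnesyl diphosphate, had a mean of 11.11 ± 0.34, Insig1, which holds back the pathway, 10.68 ± 0.29 and Cyp51, which demethylates lanosterol, 9.89 ± 0.23 (SD, n = 12 each). Set 1 had the lowest set mean for 13 of the 17, against 15.4% of all genes above background. In fatty acid synthesis Scd, the stearoyl-CoA desaturase, had 7.13, 9.35 and 10.57, with set 1 lowest (7.13 to 7.94) and set 2 highest (10.49 to 10.57). Plin2, the coat of lipid droplets, had 12.03, 12.67 and 13.08, and Pdk4, a fasting-induced kinase, 10.06, 11.92 and 12.53. Fabp1, the fatty acid carrier of the hepatocyte cytosol, had 4.77, 6.98 and 8.89 with set 1 lowest (4.77 to 5.94) and set 2 highest (8.61 to 8.89). A level near 7 for a gene that is abundant in liver is a reading of that single probe set and cannot be compared with fresh tissue here.

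Fetal and progenitor genes were above background for 5 of 17 (median 4.37), and 1 of the 5 was Aldoa, a glycolytic enzyme of most tissues. Afp, the fetal plasma protein, had 5.53, 6.55 and 7.38, and was above the bound on all 12 arrays. The imprinted fetal genes Igf2, at a mean of 4.43, H19, at 4.03, and Dlk1, at 3.70, were below it. Cytoskeleton and culture response genes were above background for 30 of 35 (median 9.09): Fn1, fibronectin, had a mean of 12.59 ± 0.11 and Krt18, a keratin of hepatocytes, 12.04 ± 0.31. Vim, the intermediate filament of mesenchymal cells, had 5.50, 6.72 and 8.44, with set 4 highest (8.29 and 8.44), and Cd44 was below the bound on every array (mean 3.74). The cell cycle list was above background for 9 of 27 genes. Pcna, the sliding clamp of DNA replication, had a mean of 10.18 ± 0.38 and Cdkn1a, the p53-driven inhibitor p21, 9.84 ± 0.32, whereas the mitotic genes Mki67 (2.23), Ccna2 (1.89), Top2a (2.83) and Aurkb (2.65) were below the bound on all 12 arrays.

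Genes of both ends of the liver lobule were measured. Of the genes of the periportal zone, around the incoming vessels, 16 of 16 were above background (median 10.57), among them Igf1 with 9.27, 10.25 and 10.99. Of the genes of the pericentral zone, around the draining vein, 10 of 16 were (median 5.51): Glul, glutamine synthetase, had 8.48, 8.83 and 9.98 and Oat, ornithine aminotransferase, 8.69, 9.45 and 10.15. The Wnt targets of that zone Lgr5 (2.36), Nkd1 (3.35) and Znrf3 (4.29) had means below the bound. These are levels of single probe sets with different probes, so the medians of both lists are no measure of how many cells came from each zone.

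Markers of other liver cells were present at unequal levels. Of the endothelial list 11 of 19 genes were above background, of the Kupffer cell and leukocyte list 12 of 26, of the stellate cell list 10 of 24, of the cholangiocyte list 4 of 14, and of the blood list 1 of 4. In such bulk RNA, fewer cells of a type and less RNA per cell cannot be told apart. Cd14, an endotoxin receptor that hepatocytes also make, had 9.58, 10.12 and 11.25, and Lyz2, lysozyme, 8.71, 9.64 and 10.06. The more specific Clec4f, a lectin of Kupffer cells, had 4.86, 5.96 and 7.06 and C1qb, a complement subunit of macrophages, 5.82, 6.81 and 8.11. The common leukocyte antigen Ptprc (3.37), the T cell gene Cd3e (3.03), the macrophage gene Adgre1 (2.94) and the neutrophil gene S100a8 (2.33) had means below the bound.

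Stellate cell genes were led by Dcn, a matrix proteoglycan, with 7.15, 7.71 and 8.99, by Sparc, a matrix protein that binds collagen, with a mean of 7.01 ± 0.30, and by Reln, a secreted glycoprotein, with 6.26, 6.81 and 7.68. Col3a1, a fibrillar collagen, had 4.79, 5.91 and 7.02, and Acta2, the smooth muscle actin of activated cells, had 5.19, 5.45 and 6.03, little above the bound. Gfap (3.72), Lum (2.26) and Postn (2.40) were below it on all 12 arrays. Of the cholangiocyte genes, Epcam, an adhesion molecule also made by other epithelial cells, had 7.69, 8.07 and 8.79, but the bile duct keratins Krt19 (2.79, 3.00 and 3.60) and Krt7 (2.75, 2.94 and 3.10) and the chloride channel Cftr (mean 2.62) were below the bound throughout. Hbb, a globin of red cells, had 4.84, 6.10 and 7.48, with set 2 highest (7.29 to 7.48).

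**Figure D2:**
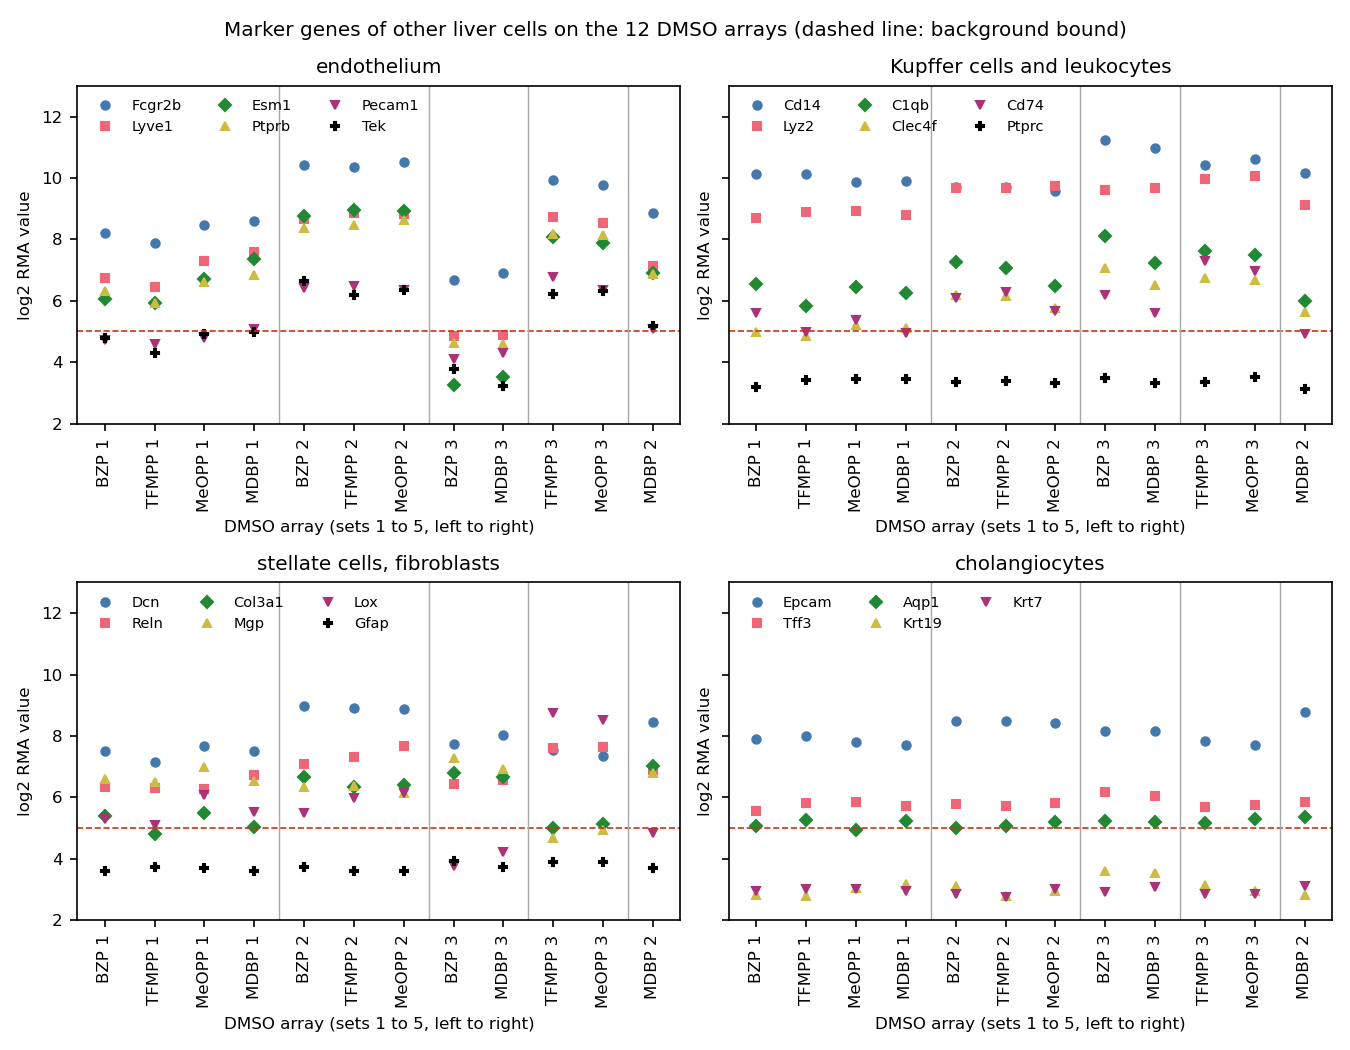
Log2 RMA value (y axis) of marker genes of endothelium, Kupffer cells and leukocytes, stellate cells and fibroblasts, and cholangiocytes on each DMSO array (x axis, sets 1 to 5 from left to right, parted by grey lines); the dashed line is the background bound at 5.00. The 6 endothelial genes shown are high in sets 2 and 4 and lowest in set 3, and Krt19 and Krt7 are below the bound on every array. Esm1 and Ptprb are no members of the endothelial list, and Eng, a member that was highest in set 3, is not shown. Of the 11 list members above background, 7 were lowest in set 3.

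Endothelial genes differed widely between arrays. Of the 11 above background, 7 had their lowest set mean in set 3, 2 in set 1 and 2 in set 5, and 5 had their highest in set 2, 5 in set 4 and 1 in set 3. That 1 was Eng, a coreceptor of transforming growth factor beta, with 6.62 and 6.99 in set 3 and 5.92 to 6.64 in the others. Of all genes above background, 29.2%, 15.4% and 12.7% had their lowest set mean in sets 3, 1 and 5. The highest lay in sets 2, 4 and 3 for 11.8%, 18.9% and 36.3% of them. Fcgr2b, the Fc receptor of sinusoidal endothelium, had 6.67, 8.74 and 10.53, and Lyve1, a hyaluronan receptor of these cells, 4.84, 7.45 and 8.87. Both were high in sets 2 and 4 and low in set 3: Fcgr2b had 10.36 to 10.53 in set 2, 9.79 and 9.92 in set 4, and 6.67 and 6.90 in set 3. Lyve1 had 8.66 to 8.87 in set 2, 8.54 and 8.72 in set 4, and 4.84 and 4.88 in set 3. Pecam1 and Tek, receptors of the endothelial surface, were likewise highest in sets 2 and 4, and in set 3 both were below the bound, Pecam1 at 4.11 and 4.29 and Tek at 3.22 and 3.77. The mean log2 value over the 19 measured genes was 5.70 to 5.81 in set 2, 5.83 and 5.89 in set 4, 4.79 to 5.13 in set 1, 4.97 in set 5, and 4.47 and 4.52 in set 3, where 5 or 6 of them were above the bound, against 12 to 14 in sets 2 and 4. On the linear scale the summed signal of the list was 612.6 and 625.7 in set 3 and 2666 to 2752 in set 2.

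Across the treated arrays 13 of the 19 endothelial genes differed between the sets, against 30.1% of all genes and 42.7% of those above background. These arrays had no part in forming the sets, but they are the partners of the DMSO arrays that did. There Lyve1 had 5.20 and 5.22 in set 3 and 6.63 to 8.74 in the others. The Kupffer cell list was ordered otherwise, with the highest list mean in set 4 (5.31 and 5.34), then set 3 (5.01 and 5.21), set 2 (4.87 to 5.09), set 1 (4.37 to 4.68) and set 5 (4.51). Stellate cell lists differed less, with list means between 4.47 and 4.99 over the 12 arrays, although 1 member, Lox, ranged from 3.77 to 8.74.

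Over all 8614 genes above background the median SD across the 12 DMSO arrays was 0.260. The lowest 10% had an SD under 0.132 and the highest 10% over 0.543, and 96 genes (1.11%) had an SD above 1. Within sets the median SD was 0.120, and for the median gene 86.6% of the sum of squares lay between sets. A range above 1 log2 unit was seen for 3169 genes (36.8%). A range above 2 units was seen for 509, and set 3 had the lowest set mean for 244 of them (47.9%) and the highest for 166 (32.6%). Over all genes above background these shares were 29.2% and 36.3%. Without the 2 arrays of set 3, left out after the data were seen, the median SD was 0.199.

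Differences between pairs were found for 46.8% of all 14217 genes and for 65.4% of those above background, and the difference between lists was not tested. This test used all 24 arrays, so a pair is a DMSO array with its treated partner and not the DMSO array alone. A drug response that differed between pairs enters its error. In the hepatocyte functions they were found for 25 of 27 bile acid genes, 25 of 31 phase II genes, 14 of 16 glucose genes, 16 of 19 acute phase genes, 15 of 17 cholesterol genes and 21 of 28 transcription factors, and for 5 of 8 urea cycle genes. In lists with most members under the bound they were found for 2 of 14 cholangiocyte genes, 6 of 17 fetal genes and 12 of 27 cell cycle genes, and among cytoskeleton and culture response genes for 20 of 35. Of the other liver cells, 19 of 26 Kupffer cell and leukocyte genes, 14 of 19 endothelial genes and 13 of 24 stellate cell genes differed, and so did 27 of 38 interferon genes and 21 of 25 stress genes. The median SD of members above background was 0.835 for the endothelial genes and 0.192 for the cholangiocyte genes, beside the 0.260 of all genes.

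**Figure D3:**
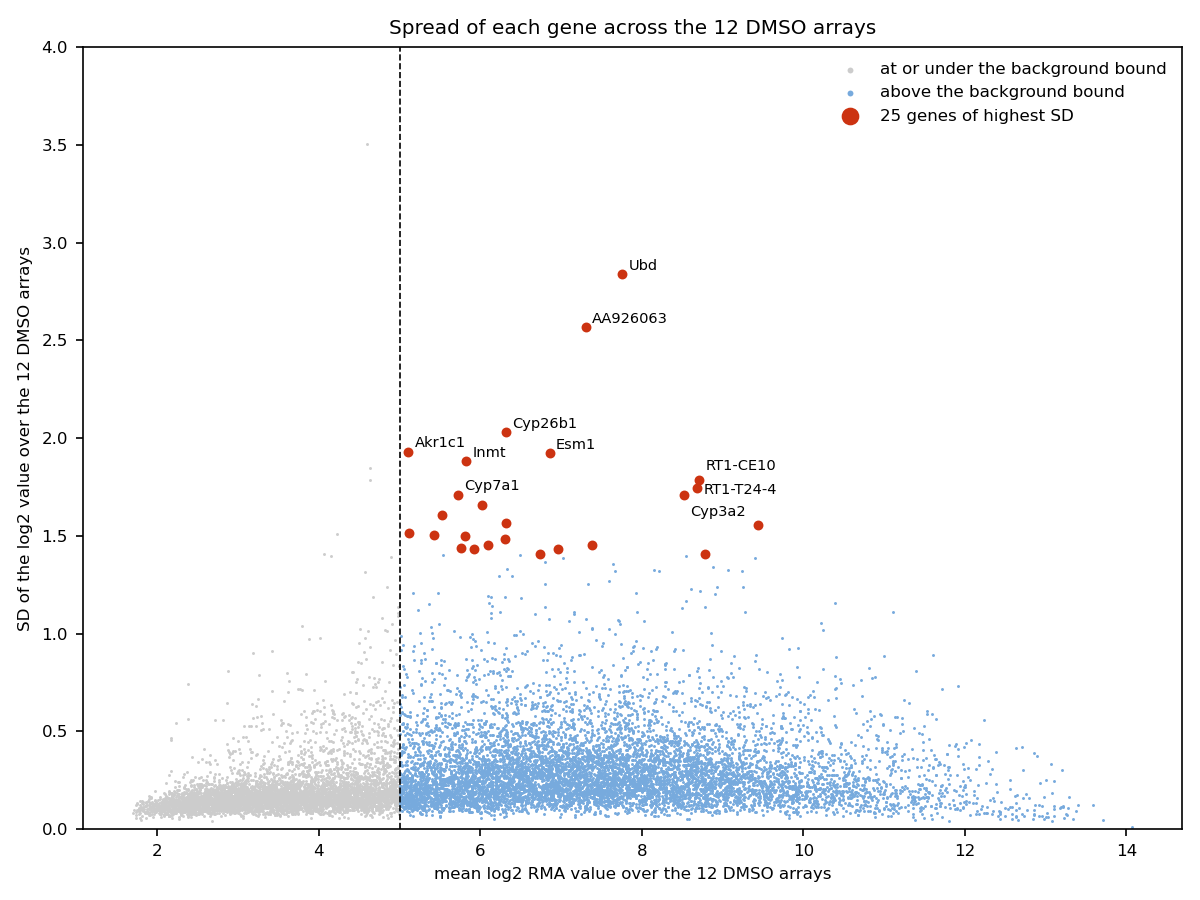
SD of the log2 value over the 12 DMSO arrays (y axis) against the mean (x axis), with 1 point per gene; the dashed line is the background bound at 5.00. The single grey point at 3.51 is Fam111a. The 25 genes of highest SD among those above background (red) have means between 5.11 and 9.43 and SDs between 1.41 and 2.84.

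Among genes with a mean of at least 10, the 10 with the smallest spread were Alb, Orm1 and 8 genes that most cells use. Rps29, Rps23, Rpl27a, Rpl35 and Rplp0, of the ribosome, Skp1, of a ubiquitin ligase, Vdac3, a channel of the outer mitochondrial membrane, and Prdx5, a peroxidase, had SDs of 0.04 to 0.05. They were picked by their spread over the DMSO arrays, so this is a description. On the treated arrays the lowest adjusted p of the 10 between sets was that of Skp1 (limma F test, 0.56). These arrays had no part in the choice, but they are the partners of the DMSO arrays that had. A lack of calls was therefore likely and does not show that the genes were constant.

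The 25 most variable genes above background had ranges of 3.51 to 7.41 log2 units, and at least 96.3% of each gene's sum of squares lay between sets. Of them 12 had their lowest array in set 3, 7 in set 1, 4 in set 2 and 2 in set 4, and 11 had their highest array in set 2 and 8 in set 3. Since they were picked by their spread over the DMSO arrays, and the sets were formed from those arrays, spread and share are a description. So is the fact that all 25 differed between pairs. The treated arrays had no part in the ranking, but each is the partner of a DMSO array that had. Members of a pair deviated together (r = 0.612 to 0.802 over probe sets). A difference between sets was therefore likely on the treated arrays too, and it is no independent support. On those 12 arrays all 25 genes differed between the sets (limma F test, largest adjusted p = 5.4e-05), against 42.7% of the genes above background and 24.3% of all probe sets. Last within the 25 was Sult2a6 with an SD of 1.41, and the first outside was Inhbb with 1.40.

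**Figure D4:**
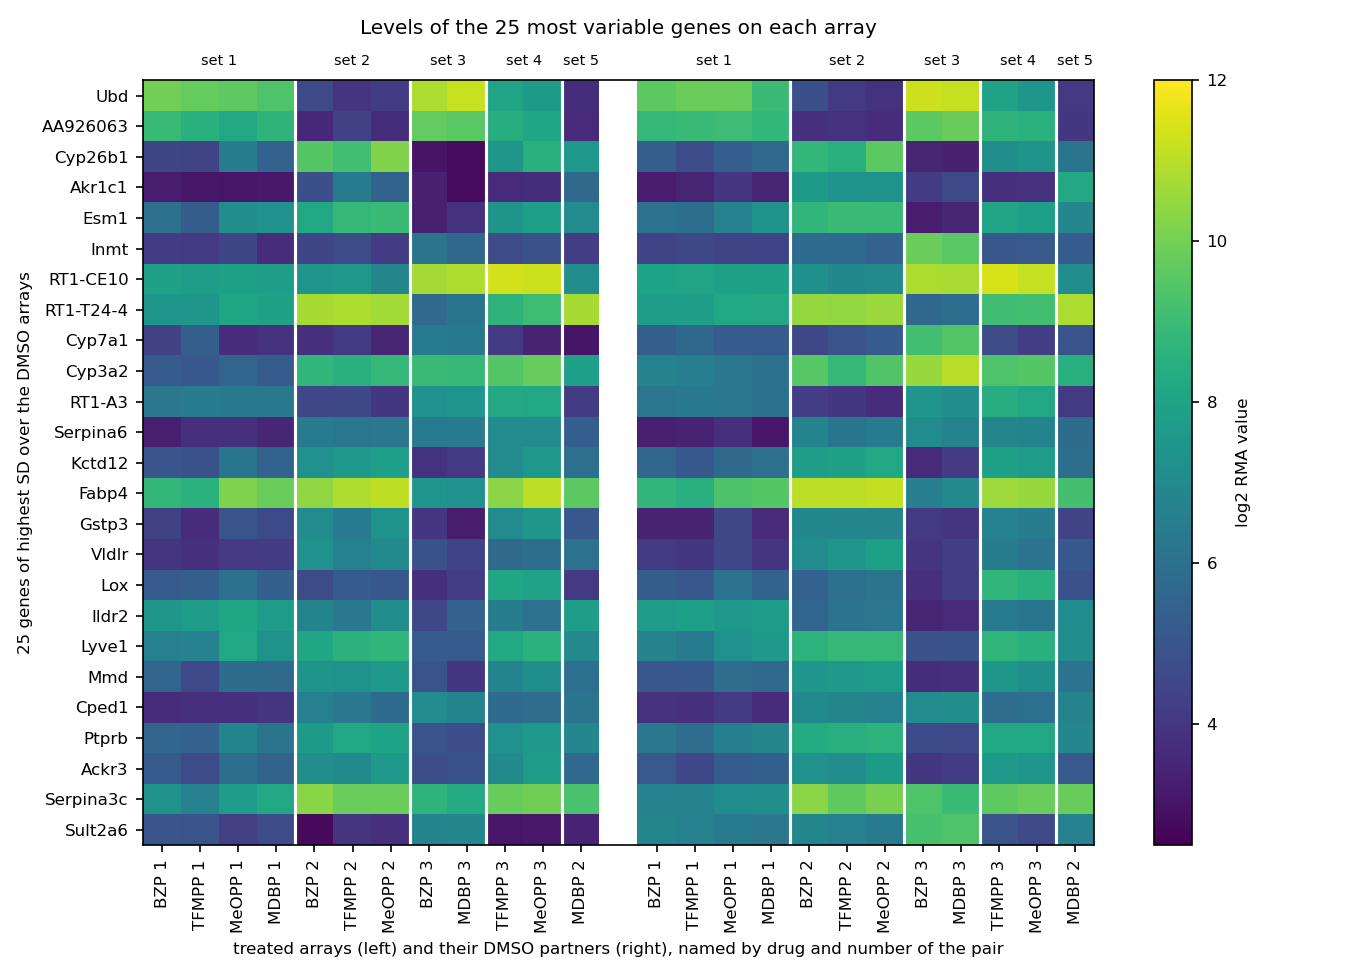
Log2 RMA value (colour) of the 25 genes of highest SD over the DMSO arrays (rows) on the 12 treated arrays (left) and their DMSO partners (right), grouped by set. The pattern across sets on the treated arrays resembles that on the DMSO arrays: Ubd, for example, is 10.85 and 11.19 in treated set 3 and 11.17 and 11.29 in DMSO set 3.

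Genes of the major histocompatibility region led the ranking. Ubd, a ubiquitin-like modifier induced by cytokines, had 9.60, 4.83 and 11.29 on the DMSO arrays of the 3 BZP pairs, 9.88, 4.10 and 7.96 on those of TFMPP, 9.82, 3.88 and 7.50 on those of MeOPP, and 8.99, 4.08 and 11.17 on those of MDBP. The 4 arrays of sets 2 and 5 were below the bound and the 8 others were between 7.50 and 11.29, with nothing between. AA926063, which has no further name in the tables used, did the same: 3.71 to 3.89 in set 2 and 4.04 in set 5, and 8.56 to 9.80 in the other sets. On the treated arrays the gap returned, with Ubd at 3.74 to 4.61 in sets 2 and 5 and at 7.67 to 11.19 in the others (limma F test across sets in the treated arrays, adjusted p = 2.5e-10).

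The filter on the mean left 20 genes with an SD above 1 out of this ranking, because they were high on few arrays. The widest of them, and of all genes measured, was Fam111a, a protease that acts at DNA replication forks and limits viruses, with an SD of 3.51 and a lowest, median and highest value of 1.98, 2.33 and 9.61. It had 9.26 to 9.61 on the 3 DMSO arrays of set 2 and 9.09 in set 5, and 1.98 to 2.51 on the 8 others, so that it was high on the same 4 arrays on which Ubd was below the bound. The treated partners of these 4 arrays had 8.37 to 9.22, and the other treated arrays 1.93 to 2.61. RT1-N2, a class I gene, was above the bound on these 4 DMSO arrays too (5.87 to 5.98), and had 2.66 to 3.49 on the others. Both genes were picked after their values were seen.

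RT1-CE10 and RT1-A3, class I histocompatibility genes that present peptides, and RT1-T24-4, a nonclassical class I gene, were also in the 25. RT1-CE10 was high in sets 3 and 4 (10.81 to 11.43) and low in the others (6.95 to 8.05), and RT1-A3 had the same 2 sets highest (7.21 to 8.41, against 3.72 to 6.36). RT1-T24-4 ran the other way, with 10.47 to 10.83 in sets 2 and 5, 9.07 and 9.13 in set 4, 7.82 to 8.22 in set 1 and 5.68 and 5.94 in set 3. These 5 genes lie on chromosome 20, which holds 3.10% of the genes above background with a known chromosome. The stretch of this chromosome between Ubd and AA926063 holds 83 genes above background with a median SD of 0.286, of which 40 differed between sets in the treated arrays, a share near the 42.7% of all genes above background. Its 13 RT1 genes, of which 12 differed, had a median SD of 0.876 and its other genes 0.270. Class I genes are close copies of each other, and several of their probe sets match more than 1 copy, so which copy gave a signal is uncertain.

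Enzymes of drug, steroid and bile acid metabolism made up a further part of the 25. Cyp3a2, a P450 of male liver, had 6.01, 9.12 and 10.99, lowest in set 1 (6.01 to 6.73) and highest in set 3 (10.54 and 10.99). Akr1c1, an aldo-keto reductase, was high in sets 2 and 5 (7.37 to 8.23) and below the bound elsewhere (3.22 to 4.60). Inmt, a methyltransferase of indoles, had 9.55 and 9.86 in set 3 and 4.43 to 5.81 elsewhere. Sult2a6, a bile acid sulfotransferase, had 9.25 and 9.38 in set 3, 4.59 and 4.92 in set 4 and 6.28 to 6.85 in the others, and Gstp3, a glutathione transferase, had 6.49 to 6.92 in sets 2 and 4 and 3.39 to 4.53 elsewhere. Without set 3, 13 of the 25 genes stayed among the 25 most variable. The SD of Cyp7a1 was then 0.42 (1.71 with set 3), that of Inmt 0.55 (1.88) and that of Sult2a6 0.80 (1.41), so the place of these 3 genes in the ranking rests on 2 arrays.

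Several other P450s of male rats were low in set 1 like Cyp3a2. Cyp2c11, the main male-specific P450, had 6.81 to 7.43 in set 1 and 8.56 to 9.91 in the others, and Cyp2c13 6.66 to 7.06 and 8.72 to 10.46. On the treated arrays Cyp2c11 had 5.66 to 6.07 in set 1 and 6.86 to 8.70 in the others (adjusted p = 1.6e-08 across sets). Cyp2c12, the female-specific counterpart, was below the bound on 9 arrays, and had 5.08 to 5.41 in set 2. Xist, the RNA of the inactive X chromosome, was below the bound on all 12 arrays (2.10 to 2.45), and Eif2s3y, on the Y chromosome, was above it on all 12 (8.09, 9.24 and 9.64).

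A further group within the 25 followed the endothelial markers. Lyve1 is a member of that list. Esm1, a proteoglycan secreted by endothelium, and Ptprb, a phosphatase of endothelium, are known for these cells too. Esm1 had 8.75 to 8.97 in set 2, 7.87 and 8.06 in set 4, 5.94 to 7.35 in set 1, 6.91 in set 5 and 3.25 and 3.52 in set 3. Ptprb, Kctd12, Fabp4, Mmd and Ackr3 ran in a like order, lowest in set 3 and highest in sets 2 and 4; Fabp4, a fatty acid carrier of fat cells, macrophages and capillaries, had 6.57 and 6.97 in set 3 and 11.07 to 11.11 in set 2. Cyp26b1, which breaks down retinoic acid, had 3.37 and 3.48 in set 3 and 8.54 to 9.59 in set 2. A second probe set of Cyp26b1 had a mean of 5.95, values of 5.11 to 7.95 and an SD of 0.95, against 2.03 for the one read. Lox, which cross-links collagen and belongs to the stellate cell list, did not share this order. It had 8.52 and 8.74 in set 4, 5.49 to 6.15 in set 2, 5.09 to 6.08 in set 1, and 3.77 to 4.85 in sets 3 and 5. Without set 3 the SD of Esm1 was 1.14 (1.92 with it), that of Lyve1 0.94 (1.45) and that of Fabp4 1.02 (1.55). The endothelial list mean in these sets is given above, and its part in the order of these genes was not tested.

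Of the remaining members of the 25, Vldlr, a lipoprotein receptor, was also highest in sets 2 and 4: it had 7.08 to 7.90 in set 2 and 6.13 and 6.49 in set 4, and 3.96 to 5.10 elsewhere. Ildr2, a membrane protein, was low in set 3 alone on the probe set read (3.49 and 3.63, against 5.62 to 7.85), and its SD was 0.83 without that set. Other probe sets of Ildr2, with means of 6.12, had lowest values of 4.64 and 5.25 and SDs of 0.90 and 0.59, and a dimmer one (mean 4.06) an SD of 0.41. The place of Ildr2 in the ranking thus depends on which probe set is read. Cped1 was low in set 1 alone (3.69 to 4.13, against 5.91 to 7.21), as were Serpina6 and the protease inhibitor Serpina3c (6.70 to 7.22, against 8.97 to 10.33).

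Interferon response genes were above background for 30 of 38 (median 6.54). Ifi27l2b had a mean of 12.56 ± 0.12 (SD, n = 12), Isg15, a ubiquitin-like protein, had 7.56, 8.40 and 9.56, and Mx2, an antiviral GTPase, 4.64, 5.69 and 7.97. Cxcl9, a chemokine that interferon gamma induces, had 9.58 to 10.20 in set 2 and 9.15 in set 5, against 7.30 to 7.92 in the other sets. Set 2 had the highest set mean for 18 of the 30 genes, against 11.8% of all genes above background. In the treated arrays 26 of all 38 differed between sets, against 30.1% of all genes and 42.7% of those above background. Mx1 (2.49), Gbp2 (2.65) and Oas1b (2.43) were below the bound on all 12 arrays.

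Promoters of 3 interferon genes are shown since they hold the interferon-stimulated response element and their genes were among the most variable of the list. GAAA, any 2 bases and GAAA again, sought on both strands, were in 3.92% of the 33469 promoters and in 21 of the 31 found for this list (67.7%); the 3 were chosen after their values were seen. Rsad2, the antiviral enzyme viperin, had 5.93 and 6.90 in set 3 and 7.74 to 9.17 elsewhere, and its match lies 147 bases before the start (chr6:48788071-48788370, minus strand). Ifih1, a sensor of viral RNA, had 5.96, 6.26 and 8.16 over the 12 arrays with set 2 highest (mean 8.06), and its match lies 59 bases before the start (chr3:67683919-67684218, minus strand). Eif2ak2, a kinase that halts translation, had 4.66, 6.45 and 7.36 with set 3 lowest (mean 4.88) and set 2 highest (mean 7.20), and its match lies 16 bases before the start (chr6:21940904-21941203, plus strand). Sequences are from RefSeq (GRCr8), and capitals mark the match.
Rsad2: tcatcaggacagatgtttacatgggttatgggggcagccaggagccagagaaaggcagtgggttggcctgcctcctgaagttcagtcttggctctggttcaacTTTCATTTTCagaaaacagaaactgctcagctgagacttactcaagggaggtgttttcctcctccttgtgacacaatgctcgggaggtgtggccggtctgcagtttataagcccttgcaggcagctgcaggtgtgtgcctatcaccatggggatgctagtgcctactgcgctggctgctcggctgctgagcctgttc
Ifih1: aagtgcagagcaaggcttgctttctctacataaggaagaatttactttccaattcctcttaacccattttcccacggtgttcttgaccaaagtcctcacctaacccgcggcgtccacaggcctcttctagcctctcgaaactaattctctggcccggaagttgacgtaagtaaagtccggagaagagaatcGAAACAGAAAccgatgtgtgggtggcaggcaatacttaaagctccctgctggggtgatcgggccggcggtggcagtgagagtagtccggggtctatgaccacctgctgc
Eif2ak2: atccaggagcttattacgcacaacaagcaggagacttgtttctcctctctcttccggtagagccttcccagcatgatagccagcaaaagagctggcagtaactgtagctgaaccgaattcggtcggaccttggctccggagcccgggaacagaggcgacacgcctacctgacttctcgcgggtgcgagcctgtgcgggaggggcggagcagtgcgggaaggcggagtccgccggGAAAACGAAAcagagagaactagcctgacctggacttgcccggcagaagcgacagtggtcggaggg

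Stress genes were above background for 23 of 25 (median 9.27). Mt2A, a metallothionein, had 12.39, 12.93 and 13.36, Hspa5, the chaperone of the endoplasmic reticulum, 11.76, 12.84 and 13.07, and Srxn1, a target of the oxidant sensor NRF2, 10.13, 11.72 and 12.02. Hspa1a, the inducible heat shock protein 70, had 7.63, 9.13 and 11.83, with set 4 apart from all others (11.64 and 11.83, against 7.63 to 10.20). Hmox1, haem oxygenase, was high in sets 4 (10.62 and 10.78) and 2 (9.92 to 10.58) and low in set 3 (7.62 and 7.63), and Atf3, a stress-induced transcription factor, was lowest in set 3 too (7.28 and 7.88). Set 4 had the highest set mean for 13 of the 23 genes and set 3 the lowest for 15, against 18.9% and 29.2% of all genes above background. In the treated arrays 17 of the 25 differed between sets, against 30.1% of all genes and 42.7% of those above background. Fos and Fosb, immediate early genes, were below the bound on all 12 arrays (means of 3.90 and 2.44). The heat shock element, sought as GAA, any 2 bases, TTC, any 2 bases and GAA on both strands, was in 0.798% of all promoters and in none of the 20 found for this list. A pattern this rare is likely to be missing from 20 promoters, and looser forms of the element were not sought. Its absence therefore says nothing about these genes.

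The DMSO arrays were also set against their treated partners, for the 25 most variable genes and for some others. The difference is the mean over the 4 drugs, so responses that differ between drugs can cancel in it. With the pair as a term, 43.3% of the genes above background differed between the mean of the 4 drugs and DMSO (26.6% higher and 16.7% lower in treated arrays, limma, adjusted p under 0.05), and 22.4% of all probe sets. Of the 25 most variable genes 9 did, 1 higher and 8 lower. Slc10a1 averaged 7.39 ± 0.96 in treated arrays and 9.94 ± 0.93 in DMSO arrays (SD, n = 12 each), and was lower in 12 of 12 pairs (difference -2.55 ± 0.12, SE, adjusted p = 1.1e-09). Cyp7a1 averaged 4.35 ± 1.11 in treated arrays and 5.73 ± 1.71 in DMSO arrays (-1.38 ± 0.16, adjusted p = 8.3e-06), and was lower in 12 of 12 pairs. Its 2 treated arrays of set 3 (6.35 and 6.41) were nevertheless above all 10 DMSO arrays of the other sets (4.27 to 5.73).

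Cyp3a2 averaged 7.68 ± 1.82 in treated arrays and 8.53 ± 1.71 in DMSO arrays, a difference of -0.84 ± 0.15 (SE, adjusted p = 0.00043) against a range of 4.98 over the DMSO arrays. Hspa1a averaged 8.37 ± 1.24 in treated arrays and 9.40 ± 1.39 in DMSO arrays (-1.02 ± 0.13, adjusted p = 2.7e-05), and was lower in 12 of 12 pairs. Apob averaged 10.41 ± 0.62 in treated arrays and 11.43 ± 0.49 in DMSO arrays, and fell in 12 of 12 pairs (-1.02 ± 0.06, adjusted p = 3.1e-09). Of the 25 most variable genes 16 did not differ detectably from DMSO, among them Lyve1 (-0.0034 ± 0.10, adjusted p = 0.99) and Ubd (-0.01 ± 0.08, adjusted p = 0.95). Of the endothelial markers, Fcgr2b (-0.14 ± 0.10, adjusted p = 0.36) and Pecam1 (-0.15 ± 0.07, adjusted p = 0.16) did not either. Without the third BZP pair Fcgr2b was lower in treated arrays (-0.24, adjusted p = 0.032). Without the pair terms, with the 12 DMSO arrays taken as 1 group, the calls of Cyp7a1, Cyp3a2 and Hspa1a were lost (adjusted p = 0.17, 0.61 and 0.28).

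**Figure D5:**
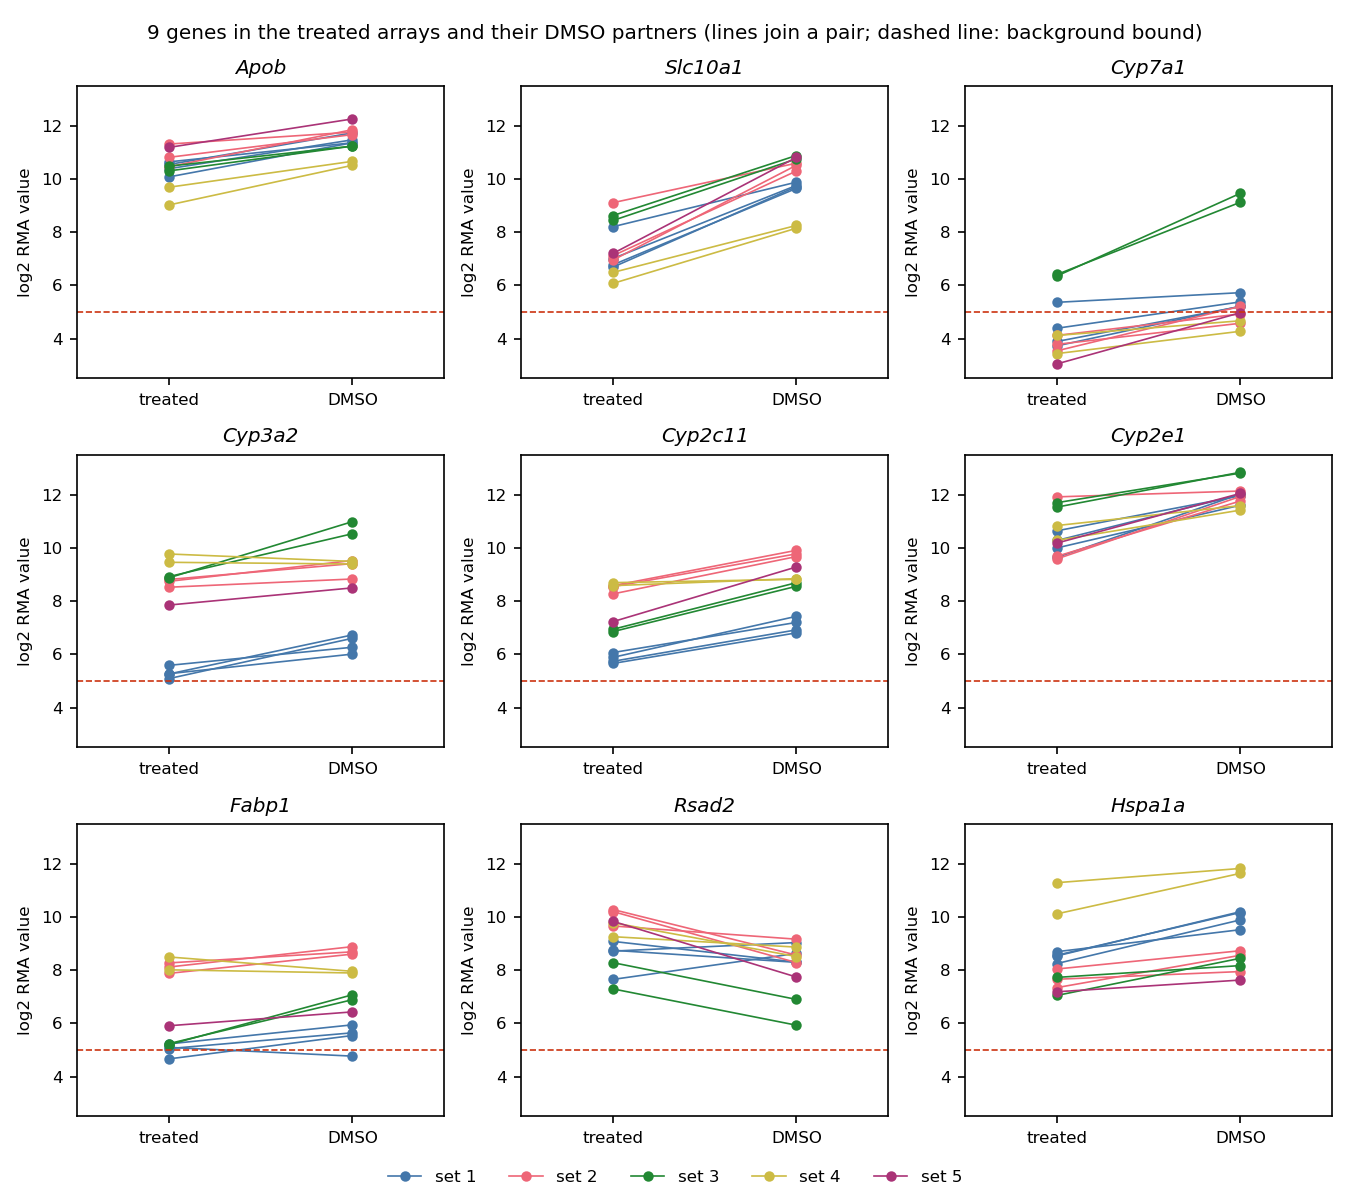
Log2 RMA value (y axis) of 9 genes on the treated arrays (left) and their DMSO partners (right); lines join a pair, colours give the set, and the dashed line is the background bound at 5.00. For Cyp3a2 the 5 sets lie further apart than treated and DMSO arrays of a pair, and for Slc10a1 every line ends higher on the DMSO side.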

How the data were processed

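The deposited table holds log2 values of 24 arrays, which the authors made with RMA (background correction, quantile normalization and summary per probe set) per the submitters' processing notes; its version is not stated in what was used here. Of 31099 probe sets 57 controls were left out, and 31042 were tested, of which 20826 had 1 gene symbol in GEO's platform annotation, 436 several and 9780 none. RMA values hold neither detection calls nor depth, and precision rests on how many arrays there are.

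Arrays were taken from their titles, which also name the treated partner of each DMSO array. Members of a pair deviated together from their group means (r = 0.612 to 0.802 over probe sets), so pairs were used as terms. The following 3 limma fits were made, with Benjamini-Hochberg adjustment over all 31042 probe sets and a threshold of 0.05: an F test between the 12 pairs on all 24 arrays with drug terms, an F test between the sets on the 12 treated arrays with drug terms, and the mean of the 4 drug effects with pair terms. Sets came from average-linkage clustering of the DMSO arrays on 1 minus Pearson r, cut at 0.007. Each fit was tested on simulated data. R 4.3.3 with limma 3.58.1 and Python 3.11.15 were used.

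Named are Alb, Apob and Cps1, the 25 genes of highest mean, the 25 of highest SD above background, the 10 of lowest SD at a mean of at least 10, in each list up to 4 members each of highest mean, highest SD and lowest mean, and 17 fixed genes, of which Ddx3y has no probe set. Beyond this rule Acta2, Ifih1, Eif2ak2, Igf2, H19, Dlk1, Eif2s3y, Fam111a, RT1-N2 and Inhbb were named after their values were seen. The members, lists, sets and the cut were chosen with earlier results of these data known.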

Additional observations from a re-analysis of the deposited data

How the results depend on the processing

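Counts of probe sets that differed between pairs, between sets in the treated arrays, and between drugs and DMSO were 11598, 7543 and 6952. With probe sets of a gene averaged, 6738 of 14217 genes differed between pairs. With the replicate number of the drug as a block, 3289 probe sets differed between pairs. With the arrays cut into 3 clusters, 4508 differed between sets. Without the pair as a block, 2156 differed between drugs and DMSO. Leaving out 1 pair or array at a time gave 10368 to 12269, 5947 to 7860 and 6002 to 6847. Genes above background were 8592 to 8631 with 1 array left out, 10097 at the 75th percentile of the other-tissue genes and 6924 at a log2 bound of 6, and the median SD was 0.230 to 0.264. The 25 brightest genes kept 24 or 25 members and the 25 most variable kept 19 to 23 with 1 array left out, but 13 without the 2 arrays of set 3, an alternative chosen after seeing the data. Of the 25 most variable genes 19 differed between pairs and 10 differed between sets in every alternative run. With probe sets averaged, 19 of the 25 brightest and 20 of the 25 most variable genes were kept, and at a log2 bound of 6, 16 of the most variable. No called difference changed direction; the uncalled differences of Lyve1 (-0.077 to 0.058) and Ubd (-0.069 to 0.034) changed sign with 1 pair left out. With probe sets of a gene averaged, the level of Apob was 8.42 and that of Hnf4a 7.51. The main limits are that sets are not described by the labels, that set 5 is 1 array and sets 3 and 4 are 2 each, that 1 probe set stands for a gene, and that no fresh liver sets a reference.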

Other observations

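Some variable genes fell outside the groups described above. Abcg2, an exporter of drugs and urate, had 5.04, 7.16 and 8.82 (lowest, median and highest of the 12 DMSO arrays), with set 3 highest (8.79 and 8.82) and sets 2 and 5 lowest (5.04 to 5.29). Cyp4a1, a fatty acid hydroxylase that PPAR alpha controls, had 9.32 and 9.75 in set 3 and 6.31 to 8.23 in the others, while Fgf21, a fasting hormone under the same receptor, had 4.52, 6.49 and 7.26 with no difference between pairs detected (limma F test, adjusted p = 0.14). The male urinary proteins Rup2 and Obp3 had 11.12, 11.78 and 12.88, and 10.93, 11.36 and 12.22. Sox4, a factor of progenitor cells, had 3.79, 5.56 and 6.49. Among 2322 probe sets above the bound that have no symbol or several, 30 (1.29%) had an SD above 1, beside 1.11% of named genes. The widest of these had an SD of 3.70 and the next 3.08, above the 2.84 of Ubd. They are not in the ranking above, which holds only probe sets with 1 symbol.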
